A study of Homo sapiens with 24 samples.

Results

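Collagens are the genes described here: every gene of the array annotation whose symbol is COL, a number, A and a number, such as COL1A1, taken over all probe sets that carry 1 symbol. The rule gave 43 genes with 112 probe sets, of 19775 genes and 54613 probe sets in all. COL17A1 has no probe set with 1 symbol and is not analysed here. RNA was measured in human embryonic stem cells on 24 arrays, in 8 groups of 3. In the first experiment the lines H1, H9 and HSF1 were grown for 5 days feeder-supported (FS), on a layer of mouse embryonic fibroblasts, or feeder-free (FF), each with 250 nM AZD3965 or with DMSO, its solvent. AZD3965 blocks MCT1, through which cells export and take up lactate. The 4 groups are thus FS with AZD3965, FS with DMSO, FF with AZD3965 and FF with DMSO, with 1 array per line in each. In the second experiment HSF1 and H9 cells, all feeder-free, received medium conditioned by mouse embryonic fibroblasts or unconditioned medium, with 3 biological replicates per group. For the time in conditioned medium, the labels say 5 days but the design text says 24 hours. The questions the design text raises are whether feeders and their secreted factors change the cells' metabolism, and what blocking lactate transport does to gene expression. The collagen genes are read here under the same contrasts.

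Collagens are the main structural proteins of the extracellular matrix. Their chains, called alpha chains, wind around each other into a rope-like helix, and the class of a collagen follows from what its helices assemble into. Fibrillar collagens form the fibres of connective tissue, type IV forms the sheet of basement membranes, type VI forms beaded filaments, type VII anchors basement membranes to the tissue beneath, and FACIT collagens sit on the surface of fibres. Pluripotent cells in culture rest on a basement membrane-like matrix and make type IV collagen and laminins of their own, while fibroblasts are the classic source of the fibrillar types I, III and V. The 43 genes fall into 11 fibrillar, 6 basement membrane (type IV), 3 short-chain network (types VIII and X), 5 beaded filament (type VI), 1 anchoring fibril (type VII), 10 FACIT, 3 transmembrane and 2 multiplexin genes, with 2 others.

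The type IV genes lie head to head in pairs that share the DNA between their starts. The stretches of 2 pairs are shown, because their 4 genes are described together in the results. The stretch between COL4A3 and COL4A4, the remaining pair, is not shown. On GRCh38.p14, COL4A1 starts at position 110307157 of chromosome 13 and runs on the minus strand, and COL4A2 starts at 110307284 on the plus strand. All 126 bases between them are at chr13:110307158-110307283. COL4A6 starts at position 108439458 of chromosome X on the minus strand and COL4A5 at 108439838 on the plus strand, and 121 of the 379 bases between them are at chrX:108439588-108439708. Both are RefSeq sequence, written 5′ to 3′ on the plus strand, with CCAAT (or its complement ATTGG) and GGGCGG in capitals.
COL4A1 and COL4A2: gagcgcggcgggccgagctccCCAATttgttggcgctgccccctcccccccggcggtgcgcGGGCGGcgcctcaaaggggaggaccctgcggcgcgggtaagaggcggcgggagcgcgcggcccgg
COL4A6 and COL4A5: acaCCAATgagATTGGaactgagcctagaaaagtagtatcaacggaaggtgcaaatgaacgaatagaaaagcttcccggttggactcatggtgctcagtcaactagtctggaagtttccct
The stretch between COL4A1 and COL4A2 was 80.2% G or C with 20 CpG dinucleotides, and it held 1 CCAAT and 1 GGGCGG. The stretch between COL4A6 and COL4A5 was 44.6% G or C with 3 CpG dinucleotides, and it held 2 CCAAT and no GGGCGG. Neither held TATAAA. All motifs were searched on both strands. In 35116 promoter windows cut to the same length and place, CCAAT occurred in 21.1% at 126 bases and in 15.05% at 121 bases, and GGGCGG in 34.6% and 20.8%. Over the full windows, from 250 bases before a start to 50 after it, 43 windows were given for 31 collagen genes. Of these, 30.2% held CCAAT, 55.8% GGGCGG and 16.3% TATAAA, against 34.6%, 45.0% and 11.5% of all windows. A match of letters is a description and not a binding site.

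All 24 arrays could be used, but the 2 feeder-supported HSF1 arrays stood apart. Over all probe sets they correlated at 0.860 to 0.961 with the other 22, which correlated at 0.947 to 0.998 with each other. The interquartile range of their log2 values was 2.45, against 2.66 to 3.30 on the others. This range also went with culture in H1 and H9. It was 2.66 to 2.85 on their FS arrays, against 3.08 to 3.30 on the FF arrays of the first experiment. Calls of the first experiment that changed without the 2 feeder-supported HSF1 arrays are given below. The 3′ minus 5′ difference of the ACTB control probe sets, which grows as RNA degrades, was 1.07, 3.25 and 2.89 in H9 cells in unconditioned medium, so replicates 2 and 3 of that group stand out. In the first experiment it moved with culture. It was 0.80, 0.56 and -0.15 in H1, H9 and HSF1 cells on feeders with DMSO, against 1.00, 1.00 and 0.65 without feeders, and with AZD3965 it was 1.19, 0.44 and -0.31, against 1.17, 0.91 and 0.47. With this difference as a covariate, 4 collagen genes were called between FS and FF cultures under DMSO, with 1.56% of all genes, and 4 under AZD3965, with 4.04% of all genes. Values are RMA log2 levels, in which a difference of 1 is a 2-fold change, and levels of different probe sets are not comparable as amounts. Where a gene has several probe sets, it is read by the one with the highest mean over the 24 arrays, called the leading probe set below. Each culture is a bulk sample, in which fewer cells of a type and less RNA per cell cannot be told apart. RNA of the mouse feeders on FS arrays and a change in the human cells cannot be told apart either.

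Most collagen genes read above 5, as did most genes on these arrays. By leading probe set, 10 genes had a mean above 9 over the 24 arrays, 11 lay above 7 and up to 9, 16 above 5 and up to 7, and 6 at 5 or below. Of all 19775 genes, 4844, 5737, 5927 and 3267 lay in these ranges. A level of 5 is below the median of every array, the lowest being 6.09, so passing it does not by itself show expression. On all 24 arrays 31 genes exceeded 5. On none did COL6A5, COL6A6, COL15A1, COL24A1 or COL28A1. The mean over the 24 arrays was above 10 for both chains of type I, for COL4A1 and for COL4A2, and these 4 genes were above 8 on every array.

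**Figure D1:**
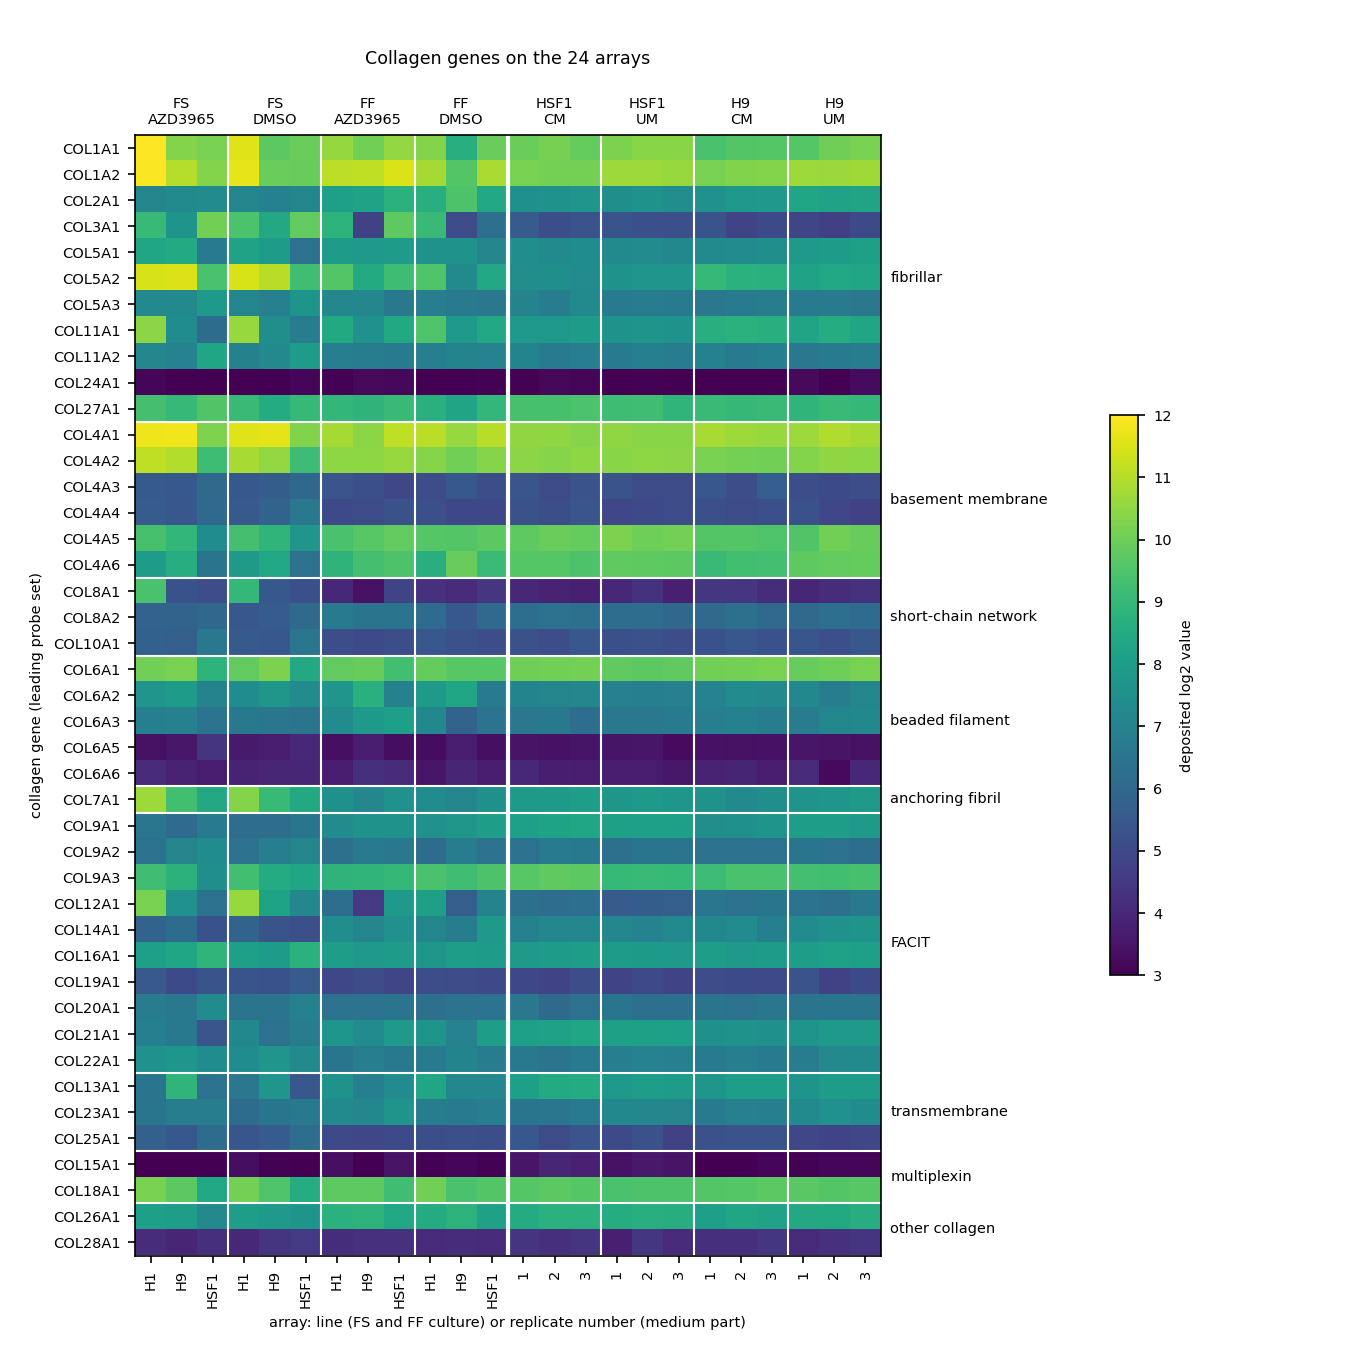
Heat map of the log2 level of the leading probe set of each of the 43 collagen genes (rows, by class) on the 24 arrays (columns, by group, feeder-supported before feeder-free, AZD3965 before DMSO and conditioned before unconditioned medium). The rows of COL1A1, COL1A2, COL4A1 and COL4A2 are high throughout, and those of COL5A2, COL7A1 and COL8A1 are higher on feeder-supported arrays.

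Cells on feeders and cells without them differed first in a few collagens. Under DMSO, 7 collagen genes were higher in FS than in FF cultures and 5 were lower, by limma with line as a block and an adjusted p below 0.05. That is 12 of 43, while the same test called 34.8% of all genes, 14.3% higher and 20.5% lower. The share of collagens called was thus near that of all genes. The higher genes were COL3A1, COL5A2, COL7A1, COL8A1, COL4A4, COL22A1 and COL25A1, and the lower ones COL2A1, COL9A1, COL14A1, COL4A6 and COL26A1. Of the 12 differences, 8 were at least 2-fold. The 3 FS arrays did not overlap the 3 FF arrays for 16 of the 43 genes, and for 50.1% of all genes. Over all 112 collagen probe sets, 28 were higher and 8 lower, against 14.1% higher and 17.6% lower of all probe sets, so the balance between directions depends on whether a gene is read by its leading probe set. With all arrays brought to one distribution, 7 genes were higher and 3 lower, 8 of them among the 12, with 17.1% of all genes called. COL8A1, COL25A1, COL4A6 and COL26A1 were then lost, and COL1A1 and COL27A1 were gained. The median difference over the 43 genes was 0.20, against -0.04 over all genes. In every line the FS culture was higher for 20 of the 43 genes and lower for 9, and for 14 the lines differed in sign. The same count over all genes was not made. Direction also went with level on these arrays. Among all genes with a mean level above 9, 33.9% were called lower and 2.39% higher, and among those above 5 and up to 7, 26.5% were called higher. Of the 7 higher collagens 5 had a mean level of 7 or below, and the part of this tilt in their calls was not tested. Without the 2 feeder-supported HSF1 arrays 18 collagen genes were called, 10 of them among the 12, with 40.8% of all genes. COL3A1 and COL25A1 (0.35, adjusted p 0.0719) were lost. The genes gained were COL1A1, COL4A1, COL4A2, COL5A1 (0.58) and COL12A1, all higher, and COL6A2 (-0.49), COL21A1 (-0.63) and COL4A5 (-0.46), all lower. With H1, H9 or HSF1 left out, 6, 4 and 14 were, and COL2A1, COL9A1 and COL14A1 were called each time. Fits with a line left out hold fewer arrays, and the share of all genes they called is not given here. Their counts are therefore not read as a result about collagens.

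**Figure D2:**
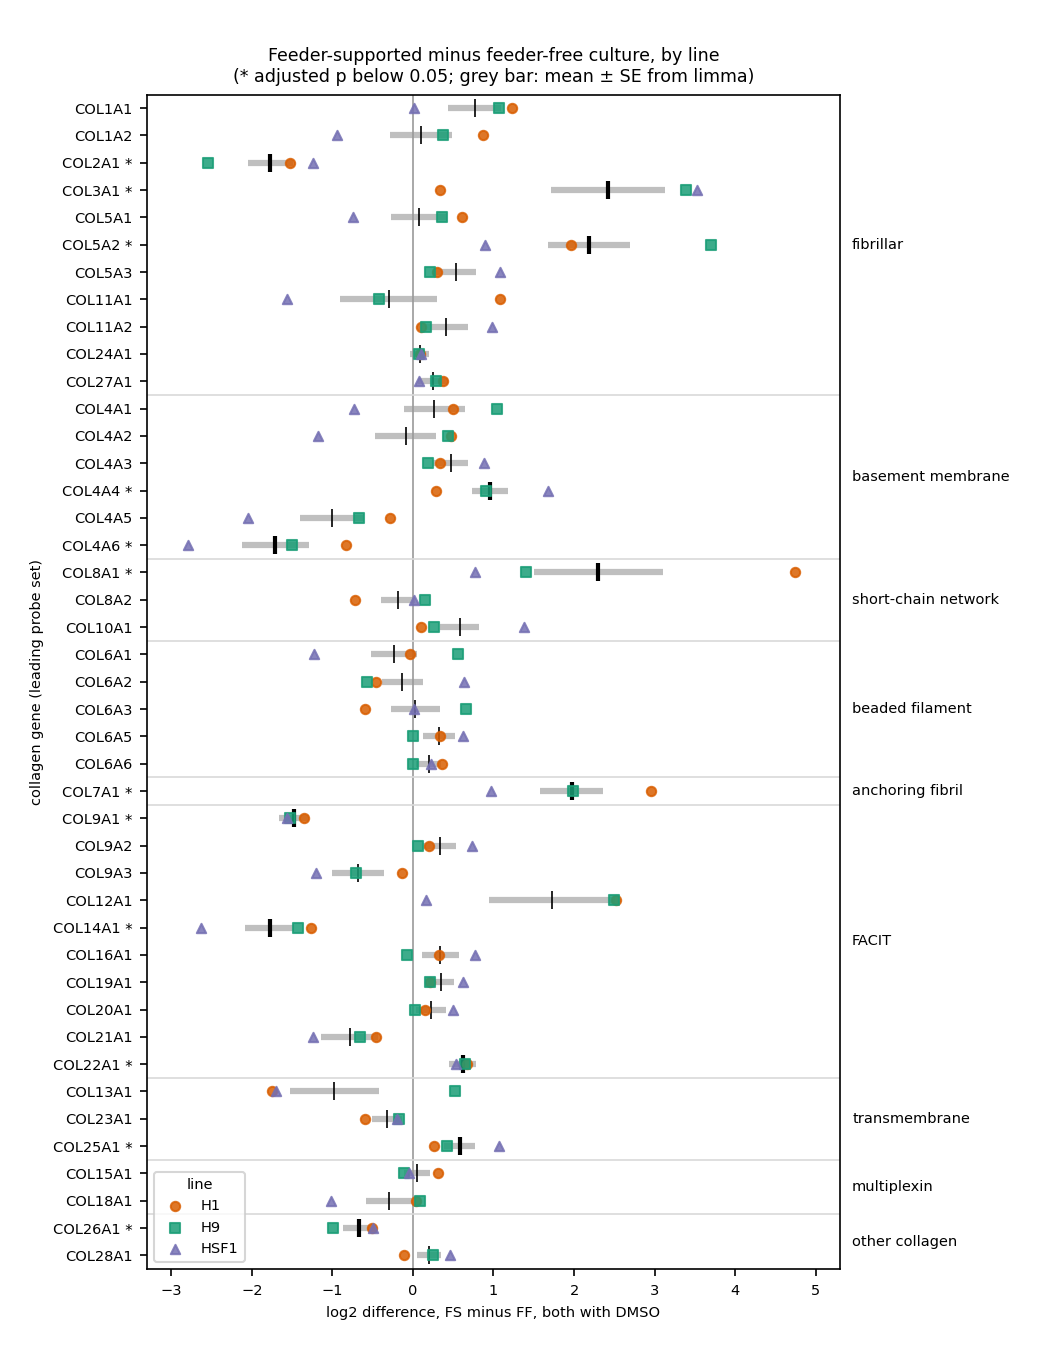
Difference of the log2 level between feeder-supported and feeder-free cultures under DMSO for each collagen gene, with one symbol per line and the mean with its SE. COL3A1, COL5A2, COL8A1 and COL7A1 lie farthest to the right, and COL2A1, COL14A1, COL4A6 and COL9A1 farthest to the left among the genes called.

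Among the fibrillar collagens, the leading probe sets of COL3A1 and COL5A2 were higher on feeders and that of COL2A1 lower, while COL1A1, COL1A2 and COL5A1 did not pass. COL5A2, a chain of the type V collagen that regulates the width of type I fibres, was at 11.47, 11.02 and 9.25 in H1, H9 and HSF1 cells on feeders with DMSO, against 9.51, 7.32 and 8.36 without feeders. It was higher on feeders in each line, and the groups overlapped only because the HSF1 culture on feeders lay below the H1 culture without them. The mean difference was 2.18 (SE 0.50, adjusted p 0.012, 4.55-fold), and its 2 probe sets gave the same value. The call was lost without H1 (2.30, adjusted p 0.0661) or H9 (1.43, adjusted p 0.0718). COL2A1, the fibrillar collagen of cartilage, was at 7.14, 6.97 and 7.14 in FS cultures, against 8.67, 9.50 and 8.38 in FF cultures. All FS arrays lay more than 1 log2 unit below all FF arrays. The difference of -1.77 (SE 0.28, adjusted p 0.00253, 3.41-fold lower) kept its call under all 14 alternative settings tried.

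COL1A1 and COL1A2 are the chains of type I, the commonest fibre collagen. COL1A1 was at 11.58, 9.75 and 9.96 in FS cultures and at 10.35, 8.68 and 9.95 in FF cultures under DMSO, higher by over 1 unit in H1 and H9 and level in HSF1. The mean difference was 0.77 (SE 0.33, adjusted p 0.0834). It passed when all arrays were brought to one distribution (1.20, adjusted p 0.00978) and without the feeder-supported HSF1 arrays (1.12, adjusted p 0.00759). COL1A2 was at 11.65, 9.96 and 9.90 in FS cultures, against 10.79, 9.58 and 10.85 in FF cultures, and the lines went in different directions (difference 0.10, SE 0.39, adjusted p 0.845). COL5A1, the partner of COL5A2 in type V, was at 8.19, 7.94 and 6.36 against 7.58, 7.58 and 7.09, higher on feeders in H1 and H9 only (0.08, SE 0.35, adjusted p 0.868).

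COL3A1, a fibre collagen of skin and vessels, gave different answers on its 5 probe sets, of which 2 were called higher. On the leading one it was at 9.44, 8.43 and 9.85 in FS cultures of H1, H9 and HSF1 with DMSO, against 9.10, 5.04 and 6.33 in FF cultures. The FF H1 array was as high as the FS arrays, while FF H9 and HSF1 were far lower, and the difference was 2.42 (SE 0.71, adjusted p 0.0264). On the second probe set by level, the same arrays read 5.76, 6.01 and 6.10, against 8.64, 4.32 and 5.46, a difference of -0.18. On another they read 2.73, 2.94 and 3.19, against 6.62, 2.88 and 3.22, a difference of -1.29. The FF H1 array was thus high on these 3 probe sets, and the FS arrays were high on the leading one of them. The other probe set called was at 3.76, 4.01 and 4.48, against 3.63, 3.61 and 3.41 (0.53, SE 0.16, adjusted p 0.0307), a signal below 5, and the fifth gave 0.18. The mean of all 5 probe sets gave 0.33 (adjusted p 0.63). The leading probe set's call was lost without H9 (1.93, adjusted p 0.103), without HSF1 (1.87, adjusted p 0.0713) and without the 2 feeder-supported HSF1 arrays (2.49, adjusted p 0.0519). Whether the leading probe set reads mouse Col3a1 was not tested. On the 12 arrays of the second experiment, where cells had no feeders, it stayed between 4.69 and 5.60.

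**Figure D3:**
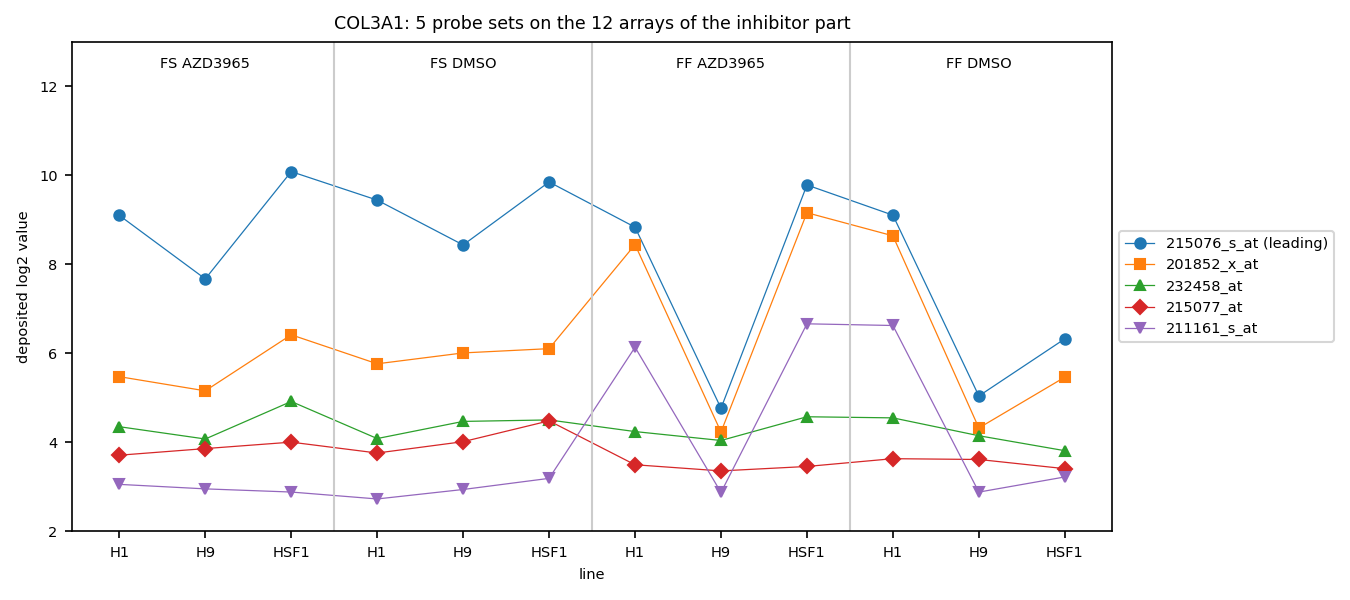
Log2 level of COL3A1 on each array of the first experiment, by probe set, with feeder-supported cultures left of feeder-free ones and AZD3965 left of DMSO. Feeder-supported arrays are high on the leading probe set and low on the others, whereas both H1 feeder-free arrays and the HSF1 feeder-free array with AZD3965 are high on 3 probe sets.

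Of the type IV chains of basement membranes, COL4A6 was lower and COL4A4 higher on feeders, while COL4A1 and COL4A2, the chains of nearly every basement membrane, did not pass. COL4A6 was at 7.85, 8.40 and 6.34 in FS cultures, against 8.68, 9.90 and 9.14 in FF cultures under DMSO, lower in each line with no overlap. The difference was -1.71 (SE 0.42, adjusted p 0.0146). COL4A5, which shares its promoter region with COL4A6 as printed above, was at 9.33, 8.90 and 7.69, against 9.62, 9.58 and 9.73, also lower in each line (by a mean of 1 log2 unit, adjusted p 0.0665). COL4A4 was at 5.50, 5.85 and 6.61 against 5.21, 4.94 and 4.93, low in both systems and higher on feeders in each line (0.96, SE 0.22, adjusted p 0.0116). Without H9, the adjusted p was 0.0712 for COL4A6 (-1.81) and 0.0763 for COL4A4 (0.98). The call of COL4A6 was also lost when all arrays were brought to one distribution.

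COL4A1 was at 11.55, 11.64 and 10.30 in FS cultures, against 11.05, 10.60 and 11.04 in FF cultures, higher on feeders in H1 and H9 and lower in HSF1 (0.27, SE 0.38, adjusted p 0.577). COL4A2 was at 10.83, 10.52 and 9.18, against 10.35, 10.09 and 10.36, with the same split between lines (-0.09, SE 0.38, adjusted p 0.857). Both were called higher without the feeder-supported HSF1 arrays, COL4A1 by 0.82 (adjusted p 0.00238) and COL4A2 by 0.45 (adjusted p 0.0089). The direction for COL4A2 therefore rests on those 2 arrays.

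The network, anchoring and beaded filament collagens behaved differently from each other. COL7A1, the anchoring fibril collagen that epithelial cells and fibroblasts make, was at 10.32, 9.08 and 8.47 in FS cultures with DMSO, against 7.37, 7.09 and 7.51 in FF cultures. Every FS array lay above every FF array, and both probe sets passed. The difference was 1.97 (SE 0.39, adjusted p 0.0071, 3.92-fold), with an adjusted p of 0.0545 without H1 (1.48) and 0.0673 without H9 (1.96). COL8A1, a short-chain collagen of vessels and of the cornea, was at 9.01, 5.47 and 5.18, against 4.27, 4.07 and 4.41. Its FF values were all below 5, near the bottom of the signal. The H1 culture on feeders carried most of the mean difference of 2.30 (SE 0.80, adjusted p 0.0445), with line differences of 4.74 in H1, 1.40 in H9 and 0.77 in HSF1. Without H1 the difference was 1.08 (adjusted p 0.0799) and without H9 2.75 (adjusted p 0.10).

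None of the 5 type VI genes passed under DMSO on its leading probe set. COL6A1, one of the common type VI chains, was at 9.82, 10.22 and 8.43 in FS cultures, against 9.86, 9.66 and 9.66 in FF cultures (-0.24, SE 0.29). COL6A2, its usual partner, was at 7.38, 7.76 and 7.32 against 7.84, 8.33 and 6.69 (-0.13, SE 0.25). COL6A3, the longest of these chains, was at 6.62, 6.54 and 6.46 against 7.21, 5.88 and 6.44 (0.03, SE 0.30). In all 3 the groups overlapped. The 8 probe sets of COL6A1 did not move alike, since 4 were called higher on feeders, by up to 0.83, and the leading one alone had a negative sign. COL18A1, a multiplexin of basement membranes whose end piece is endostatin, was at 10.11, 9.51 and 8.58 against 10.08, 9.42 and 9.59, and only the HSF1 arrays differed by much (-0.30, SE 0.28).

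FACIT and transmembrane collagens went both ways. COL9A1, a chain of the type IX collagen that coats cartilage fibres, was at 6.22, 6.22 and 6.50 in FS cultures and at 7.57, 7.75 and 8.06 in FF cultures, again a gap of more than 1 unit between all arrays. Its difference of -1.48 (SE 0.19, adjusted p 0.000857) held under all 14 settings, on the leading probe set. The second probe set of COL9A1 gave -0.15. COL14A1, which binds fibres in skin and tendon, was at 5.87, 5.35 and 5.19, against 7.14, 6.77 and 7.83 (-1.77, SE 0.30, adjusted p 0.00392). Of its 4 probe sets 2 were called lower, and the others had the opposite sign, up to 0.32, and were not called. COL22A1, found at tissue junctions such as that of muscle and tendon, was at 7.39, 7.70 and 7.32, against 6.73, 7.05 and 6.79, higher in each line (0.62, SE 0.17, adjusted p 0.0225). The call of COL22A1 was lost without H1 (0.59, adjusted p 0.17) or H9 (0.60, adjusted p 0.132).

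COL12A1, a FACIT of dense connective tissue, was at 10.63, 8.22 and 7.18 in FS cultures and at 8.11, 5.73 and 7.02 in FF cultures. It was about 2.5 units higher on feeders in H1 and H9, but level in HSF1, and its leading probe set did not pass (1.72, adjusted p 0.0985). It passed on 3 of its 5 probe sets and, without the feeder-supported HSF1 arrays, by 2.90 (adjusted p 0.00163). COL25A1, a transmembrane collagen known from brain, was at 5.42, 5.62 and 6.23 against 5.16, 5.20 and 5.17 (0.58, SE 0.19, adjusted p 0.0366). Its adjusted p was 0.10 without H1, 0.106 without H9 and 0.137 without HSF1. COL26A1, a little studied collagen, was at 8.04, 7.82 and 7.64 against 8.55, 8.80 and 8.14, lower in each line (-0.67, SE 0.20, adjusted p 0.027). Its call was lost without H1 (-0.74, adjusted p 0.131) or H9 (-0.51, adjusted p 0.208), and its other probe set gave 0.17.

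**Figure D4:**
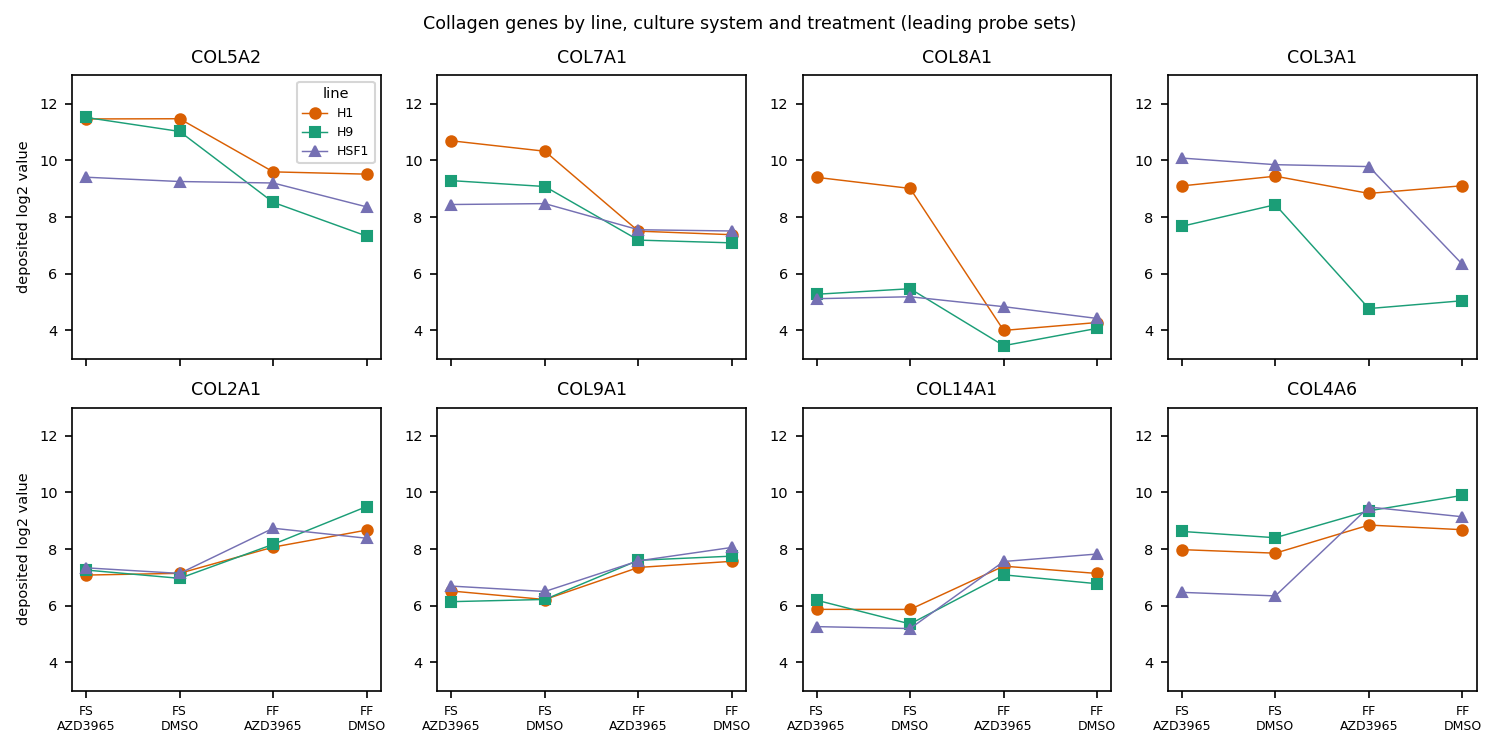
Log2 level of 8 collagen genes on each array of the first experiment, with one symbol per line and the 4 conditions side by side, feeder-supported left of feeder-free. COL2A1, COL9A1, COL14A1 and COL4A6 are lower on feeders in every line, COL5A2 and COL7A1 are higher in every line, and the high COL8A1 values are the H1 cultures on feeders.

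The same contrast under AZD3965 used other arrays of the same lines and gave 8 higher and 10 lower collagen genes, where 43.0% of all genes were called, 18.9% higher and 24.1% lower. Of the 12 genes called under DMSO, 11 were called here in the same direction, which is also 11 of these 18, and COL3A1 (1.16, adjusted p 0.19) was not. COL5A2 was at 11.46, 11.52 and 9.41 in FS cultures, against 9.60, 8.52 and 9.20 in FF cultures with AZD3965 (1.69, SE 0.50). COL7A1 was at 10.69, 9.29 and 8.44, against 7.50, 7.18 and 7.55 (2.06, SE 0.39), and COL8A1 at 9.40, 5.27 and 5.11, against 3.99, 3.45 and 4.83 (2.50, SE 0.80). As under DMSO, the FS culture was higher than the FF culture of its line for these 3 genes, and H1 was highest for COL8A1. COL2A1 was at 7.08, 7.26 and 7.34, against 8.07, 8.17 and 8.74 (-1.10, SE 0.28), COL9A1 at 6.52, 6.14 and 6.69, against 7.35, 7.60 and 7.58 (-1.06, SE 0.19), and COL14A1 at 5.87, 6.19 and 5.26, against 7.40, 7.09 and 7.56 (-1.57, SE 0.30). In each the FS arrays lay below the FF arrays without overlap on the leading probe set. Of the 4 probe sets of COL14A1, however, 2 were called lower and 1 higher, with differences from -2.13 to 0.62. The second probe set of COL9A1 gave 0.22.

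Of the genes called under AZD3965 and not under DMSO, COL10A1 of hypertrophic cartilage (0.95) and the FACIT COL20A1 (0.51) were higher on feeders. The lower ones were COL21A1 (-1.32), COL4A5 (-1.07), COL6A3 (-1.02), COL23A1 (-0.66) and COL8A2 (-0.65). COL10A1 was at 5.81, 5.71 and 6.61 in FS cultures, against 5.14, 5.01 and 5.15 in FF cultures. COL6A3 was at 6.90, 6.91 and 6.42, against 7.34, 7.86 and 8.09. For 21 of the 43 genes the groups did not overlap, and for 54.2% of all genes. Over the 112 collagen probe sets 28 were higher and 12 lower, against 19.6% higher and 20.5% lower of all probe sets, so here the balance turns round. Without the 2 feeder-supported HSF1 arrays 10 genes were higher and 8 lower, with 39.9% of all genes called. COL1A1 (0.91), COL4A1 (1.12), COL4A2 (0.58) and COL12A1 (3.10) were then gained, and COL4A4, COL20A1, COL4A5 and COL6A3 were lost. With all arrays brought to one distribution, COL2A1, COL4A4, COL4A5, COL4A6, COL6A3, COL8A1, COL20A1 and COL26A1 were lost. COL1A1, COL4A1, COL16A1 and COL27A1 were gained in that fit. Without H1, 1 collagen gene was called, without H9 11 and without HSF1 19, again without a share of all genes beside these counts.

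Genes that act on collagens changed in both directions between the systems. The counts of all partner lists stand beside 14.3% of all genes called higher and 20.5% called lower under DMSO. Of 13 measured genes for propeptide cleavage and cross-linking, 4 were higher and 4 lower in FS than in FF cultures under DMSO. LOX, the enzyme that starts the cross-linking of fibres, was at 6.97, 6.03 and 6.06 in FS cultures, against 5.10, 4.62 and 4.65 in FF cultures (1.56, SE 0.21, adjusted p 0.00111). LOXL1 of the same family was 1.56 higher and BMP1, which cleaves the procollagen end, 1.07 higher. PCOLCE2, an enhancer of that cleavage, was lower in FS cultures, by a difference of -1.58 (SE 0.24, adjusted p 0.00223). Of 18 measured genes for collagen modification and folding, none was higher and 2 were lower, P3H4 by -1.16 and P3H1 by -0.56, both of the prolyl 3-hydroxylase family. The median over those 18 was -0.40, against -0.04 over all genes. Their mean log2 level under DMSO ran from 8.29 to 9.10 on FS arrays and from 8.98 to 9.17 on FF arrays. Over all genes the median was -0.44 at a mean level above 7 and up to 9, and -0.54 above 9. The median of the 18 was thus near that of all genes at such levels.

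Of 9 measured collagen receptors, ITGA11 (0.73) and LAIR1 (0.61) were higher and ITGA1 (-0.52) lower. Of 12 measured partners in the basement membrane, the laminin chain LAMA4 (0.78) was higher and the chains LAMA1 (-1.23) and LAMB2 (-0.87) lower. Of 11 collagen-degrading enzymes and their inhibitors, MMP14 (0.71) and TIMP3 (0.63) were higher and TIMP2 (-1.13) lower. COLGALT2, DDR1 and LAMA3 are not analysed here.

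Fibroblast markers moved with the FS cultures. Of 18 markers, 9 were higher and none lower under DMSO (median difference 0.88), and 8 were higher and 2 lower under AZD3965 (median difference 0.43). Of all genes, 14.3% were called higher and 20.5% lower under DMSO, and 18.9% and 24.1% under AZD3965. Under DMSO the mean log2 level over all 18 ran from 7.74 to 8.16 on the FS arrays, against 6.67 to 7.14 on the FF arrays, with the summed level at 13.6 to 14.1 against 12.2 to 13.1 on the log2 scale. CDH11, a cadherin of mesenchymal cells, was at 11.28, 11.63 and 12.54, against 7.39, 7.15 and 6.82 (4.70, SE 0.36, adjusted p 1.82e-05). The lowest and highest differences among the 18 were THY1 (-0.73, not passed) and CDH11. None of the 18 was below 5 on all arrays. Their part in the collagen differences was not tested. Of 8 measured markers of pluripotent cells, 4 were lower on feeders, SOX2, DPPA4, SALL4 and ZFP42, and none higher, while POU5F1 and TDGF1 are not analysed here. The mean log2 level of the 8 ran from 11.99 to 12.34 on the FS arrays, against 12.52 to 12.65 on the FF arrays. Of all genes with a mean level above 9, 33.9% were called lower and 2.39% higher. The median difference was -0.40 over the 8 markers and -0.54 over all genes above 9. Of the differentiation markers, 5 of 7 for endoderm and 3 of 8 for mesoderm were higher, and 1 mesoderm marker, KDR, was lower. For neuroectoderm 4 of 8 and for trophoblast 3 of 6 were higher. The same fit called 14.3% of all genes higher, and 26.5% of those with a mean level above 5 and up to 7. NEUROG2, among the neuroectoderm markers called higher, was below 5 on all arrays.

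AZD3965 changed no collagen gene past the threshold on its leading probe set with line as a block, in either system. A fit that takes the arrays of a line within a culture system as a pair did call collagen genes, as given below. Of the 43 genes 0 were called in FS cultures, 0 in FF cultures, 0 for the mean of both and 0 for the difference between them, where limma called 0.00506%, 0.617%, 0.405% and 0.00506% of all genes. At an unadjusted p under 0.05 there were 1, 4, 6 and 1 of the 43, counts for which no share of all genes is given. Of all 112 probe sets, 1 was called, a second probe set of COL14A1 that was higher with AZD3965 in FF cultures (1.47, SE 0.21, adjusted p 0.00995), while the leading one gave 0.10. Without the 2 feeder-supported HSF1 arrays, COL6A3 (1.25, adjusted p 0.0325) and COL23A1 (0.61, adjusted p 0.0305) were called in FF cultures, and COL4A2 (0.31) and COL23A1 (0.47) for the mean of both. In FF cultures COL6A3 was at 7.34, 7.86 and 8.09 in H1, H9 and HSF1 with AZD3965, against 7.21, 5.88 and 6.44 with DMSO. It was higher in each line, by 0.13, 1.98 and 1.64, and on average by 1.25 (SE 0.30, adjusted p 0.14). COL23A1, a transmembrane collagen, was at 7.27, 7.18 and 7.65, against 6.76, 6.66 and 6.84 (0.61, SE 0.18, adjusted p 0.277), and COL8A2 at 6.71, 6.48 and 6.45, against 6.16, 5.48 and 6.08 (0.64, SE 0.21, adjusted p 0.367). For these 3 genes the groups did not overlap. How many of all genes had no overlap in this contrast is not given, so this does not set the 3 apart.

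Type I collagen also read higher with the inhibitor in feeder-free cells without passing. COL1A1 was at 10.58, 10.07 and 10.55 with AZD3965, against 10.35, 8.68 and 9.95 with DMSO (0.74, SE 0.33, adjusted p 0.721), and COL1A2 at 11.11, 11.14 and 11.48, against 10.79, 9.58 and 10.85 (0.84, SE 0.39, adjusted p 0.771). H9 had the widest gap for both. In FS cultures COL1A1 was at 12.07, 10.34 and 10.18 with AZD3965, against 11.58, 9.75 and 9.96 with DMSO (0.44, SE 0.33), and COL1A2 at 11.96, 10.98 and 10.32, against 11.65, 9.96 and 9.90 (0.58, SE 0.39), higher in each line. COL4A1 with the inhibitor differed by 0.11 (SE 0.38) in FS and by -0.12 (SE 0.38) in FF cultures. Over the 3 lines 15 of 43 genes were higher with AZD3965 in all lines in FF cultures, 6 were lower in all, and 22 were mixed. The counts in FS cultures were 13, 3 and 27. Some genes have 1 sign in all 3 lines without any effect, and no count over all genes was made. These counts are therefore not read as a result about collagens.

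The 2 arrays of a line within a culture system form a pair, and their deviations from the group means correlated at 0.63 to 0.88. A fit with each such pair as a block gave calls that the line block did not. With this replicate block 7 collagen genes were higher with AZD3965 in FF cultures and none lower, while 10.8% of all genes were called. They were COL6A3 (adjusted p 0.0048), COL23A1 (adjusted p 0.00591), COL1A1 (adjusted p 0.00748), COL1A2 (adjusted p 0.00772), COL5A2 (adjusted p 0.0121), COL8A2 (adjusted p 0.0141) and COL5A1 (adjusted p 0.0356). For the mean of both systems 9 were higher and none lower, with 12.1% of all genes called. Among them COL1A2 was higher by 0.71, COL1A1 by 0.59 and COL4A2 by 0.26. In FS cultures the count stayed at 0. Of the lists of collagen partners, NID2, a nidogen that links type IV collagen to laminin, was the one gene called with line as a block. It was at 8.09, 8.15 and 8.63 in FF cultures with AZD3965, against 6.54, 5.97 and 6.49 with DMSO (1.95, SE 0.21, adjusted p 0.0019).

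Medium conditioned by fibroblasts, which brings what these cells secrete but not the cells, changed 7 collagen genes in HSF1 and 10 in H9. In HSF1 cells 5 were higher and 2 lower in conditioned than in unconditioned medium, where 11.4% of all genes were called, 5.19% higher and 6.20% lower. In H9 cells 2 were higher and 8 lower, where 9.30% of all genes were called, 1.77% higher and 7.53% lower. The groups did not overlap for 17 of the 43 genes in HSF1 and for 38.3% of all genes, and for 15 of 43 in H9 and 27.2% of all genes. None of the differences called reached 2-fold, the widest being 0.69 in HSF1 and 0.60 in H9. COL1A2 and COL23A1 were lower in both lines, which is 2 of the 7 and 2 of the 10. With replicate 1, 2 or 3 of every group left out, 6, 3 and 4 genes were called in HSF1 and 13, 1 and 6 in H9. For these smaller fits the share of all genes called is not given, so the counts do not single out collagens. Without replicates 2 and 3 of H9 in unconditioned medium 6 were called in H9.

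**Figure D5:**
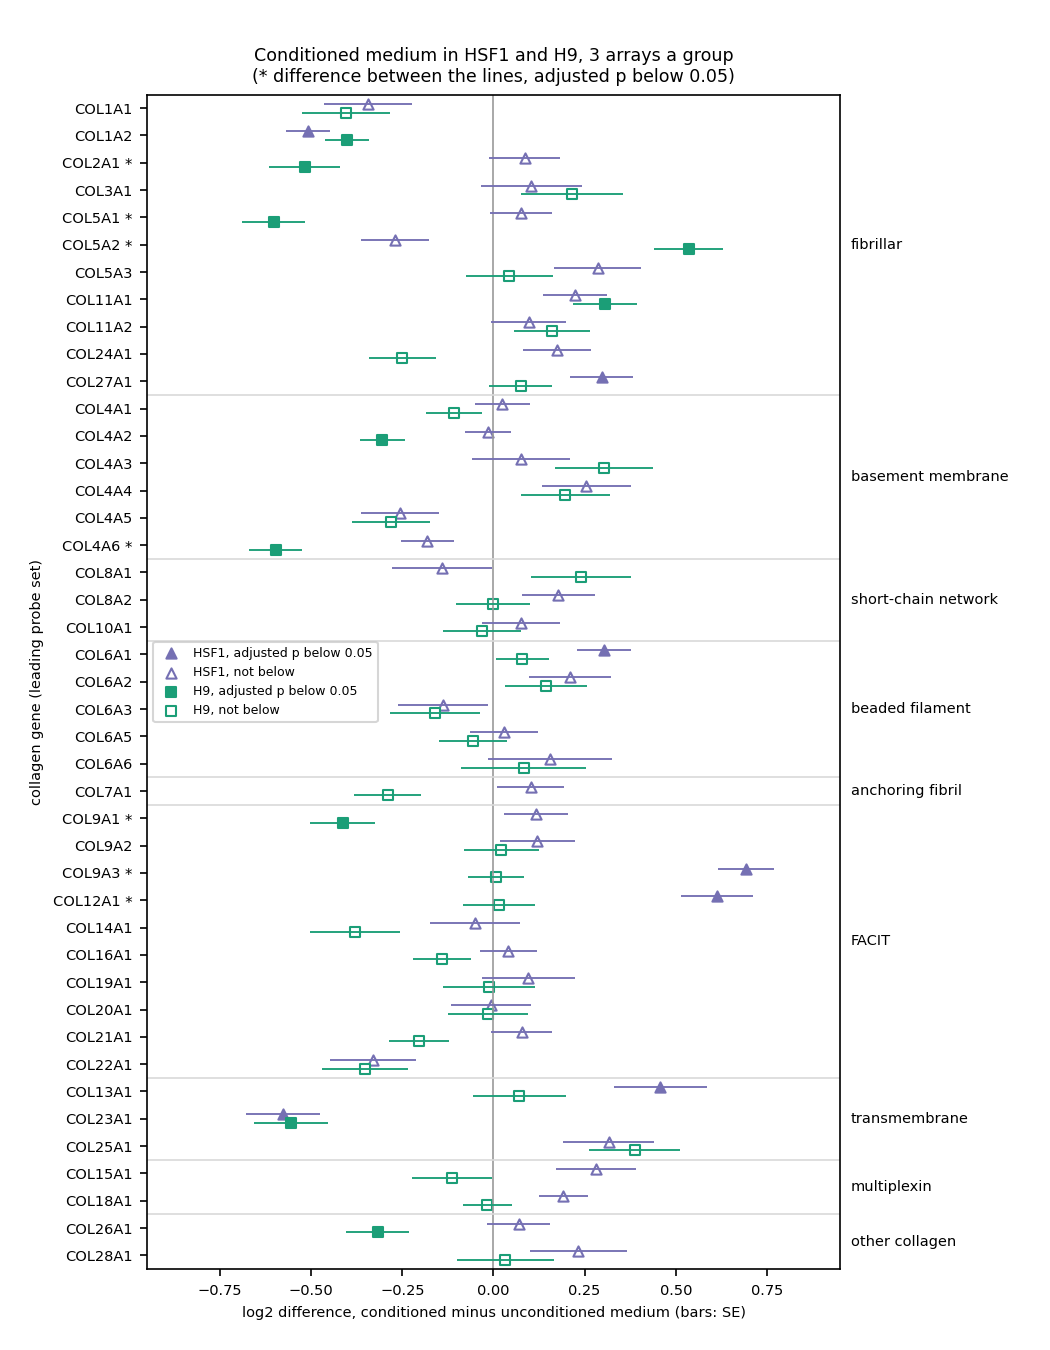
Difference of the log2 level between conditioned and unconditioned medium for each collagen gene in HSF1 (triangles) and H9 (squares), with its SE, filled where the adjusted p is below 0.05. COL1A2 and COL23A1 are low in both lines, COL9A3 and COL12A1 are high in HSF1 and near 0 in H9, and COL5A2 points in opposite directions.

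COL1A2 was at 10.19, 10.13 and 10.12 in HSF1 cells in conditioned medium, against 10.68, 10.67 and 10.63 in unconditioned medium (-0.51, SE 0.06, adjusted p 6.46e-05). In H9 cells it was at 10.21, 10.30 and 10.33, against 10.68, 10.63 and 10.72 (-0.40, SE 0.06, adjusted p 0.000926). On this leading probe set the arrays within each group differed by far less than the groups. Of the 3 probe sets of COL1A2, 2 were called lower in HSF1 and 1 in H9. Their differences ran from -0.53 to -0.41 in HSF1 and from -0.40 to 0.01 in H9. COL1A1 was at 9.98, 10.16 and 9.87 against 10.23, 10.41 and 10.39 in HSF1, and at 9.41, 9.60 and 9.64 against 9.63, 10.03 and 10.19 in H9, and passed in neither line. COL23A1 was at 6.50, 6.53 and 6.71 against 7.21, 7.15 and 7.11 in HSF1 (-0.58, SE 0.10, adjusted p 0.00212) and at 6.68, 6.94 and 6.89 against 7.26, 7.54 and 7.38 in H9 (-0.56, SE 0.10, adjusted p 0.00434).

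In HSF1 cells the 5 rises were in COL9A3 and COL12A1 of the FACIT class, COL6A1, COL13A1 and COL27A1. COL9A3, another type IX chain, was at 9.68, 9.82 and 9.74 in conditioned medium, against 9.04, 9.08 and 9.04 in unconditioned medium (0.69, SE 0.08, adjusted p 3.43e-05, 1.62-fold), and this call held under all 14 settings. COL12A1 was at 6.31, 6.23 and 6.28 against 5.57, 5.67 and 5.74 (0.61, SE 0.10, adjusted p 0.001). COL6A1 was at 10.03, 10.08 and 10.11 against 9.80, 9.72 and 9.79 (0.30, adjusted p 0.0183). The transmembrane COL13A1 was at 8.08, 8.50 and 8.53 against 7.79, 8.00 and 7.95 (0.46, adjusted p 0.0382), and the fibrillar COL27A1 at 9.37, 9.39 and 9.45 against 9.20, 9.22 and 8.91 (0.30, adjusted p 0.0481). The calls of COL6A1, COL13A1 and COL27A1 were lost without replicate 2 or without replicate 3, and that of COL27A1 also without replicate 1.

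In H9 cells COL5A2 and COL11A1, a minor fibrillar collagen of cartilage, rose and 8 genes fell. COL5A2 was at 9.02, 8.75 and 8.71 in conditioned medium, against 8.19, 8.38 and 8.29 in unconditioned medium (0.54, SE 0.09, adjusted p 0.00319). COL11A1 was at 8.67, 8.73 and 8.68 against 8.26, 8.58 and 8.33 (0.31, SE 0.09, adjusted p 0.0485), a call that leaving out any one replicate number removed. COL5A1 went the other way from its partner, at 7.30, 7.36 and 7.47 against 7.88, 7.96 and 8.10 (-0.60, SE 0.09, adjusted p 0.000628). COL4A6 was at 9.11, 9.28 and 9.30 against 9.76, 9.84 and 9.89 (-0.60, SE 0.07, adjusted p 0.000151), and its call held under all 14 settings. COL4A2 was at 10.18, 10.12 and 10.08 against 10.34, 10.49 and 10.46 (-0.30, adjusted p 0.00926), but its other probe set gave 0.27 and was not called. Its neighbour COL4A1, at 10.81, 10.68 and 10.61 against 10.69, 10.94 and 10.80, did not pass.

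COL2A1 was at 7.54, 7.80 and 7.85 in H9 cells in conditioned medium, against 8.34, 8.17 and 8.24 in unconditioned medium (-0.52, adjusted p 0.00516). COL9A1 was at 7.45, 7.51 and 7.68 against 8.00, 8.01 and 7.86 (-0.41, adjusted p 0.0116), and COL26A1 at 8.09, 8.30 and 8.17 against 8.45, 8.46 and 8.59 (-0.32, adjusted p 0.0383). Without replicates 2 and 3 of H9 in unconditioned medium, the arrays with the large ACTB difference, COL1A2, COL2A1, COL5A1, COL4A6, COL5A2 and COL11A1 were called, and COL4A2, COL9A1, COL23A1 and COL26A1 were not. Of the 10 genes called in H9, 5 were also called between FS and FF cultures under DMSO, 5 of that contrast's 12, in the same direction. These were COL5A2, higher in both, and COL2A1, COL4A6, COL9A1 and COL26A1, lower in both. Of the 7 called in HSF1, 0 were. Over all genes, 44.8% of those called in H9 and 29.03% of those called in HSF1 were called in the same direction between FS and FF cultures, which is 11.98% and 9.51% of the genes called there. These contrasts share no arrays.

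The response to conditioned medium differed between the lines for 7 collagen genes, by the interaction term (HSF1 minus H9), where 3.46% of all genes were called, 2.53% higher and 0.930% lower. COL9A3 (0.69, SE 0.11, adjusted p 0.00501) and COL12A1 (0.60, SE 0.14, adjusted p 0.033) rose in HSF1 and were near level in H9, where COL9A3 was at 9.17, 9.40 and 9.42 against 9.33, 9.28 and 9.38. COL5A1 (0.68, adjusted p 0.00926), COL2A1 (0.60, adjusted p 0.0308), COL9A1 (0.53, adjusted p 0.0358) and COL4A6 (0.42, adjusted p 0.0433) were lower with conditioned medium in H9 and not called in HSF1. In HSF1 COL5A1 was at 7.41, 7.30 and 7.36 against 7.29, 7.34 and 7.22, and COL2A1 at 7.51, 7.58 and 7.69 against 7.50, 7.62 and 7.41. Of the 5 probe sets of COL12A1, 1 was called for the interaction, and they ran from -0.18 to 0.60. The second probe set of COL9A1 gave 0.05. COL5A2 had the opposite sign of the other 6 (-0.80, SE 0.13, adjusted p 0.00619). It was at 7.46, 7.49 and 7.33 in HSF1 cells in conditioned medium against 7.63, 7.69 and 7.76 in unconditioned medium, all below, whereas all H9 arrays in conditioned medium lay above those in unconditioned medium. Without replicates 2 and 3 of H9 in unconditioned medium, 2 of the 7 were called, COL9A3 (0.69) and COL5A2 (-0.90). With replicate 1, 2 or 3 of every group left out the counts were 3, 0 and 0, with no share of all genes given.

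The partners of basement membrane collagen also responded by line. Of all genes, 5.19% were called higher and 6.20% lower in HSF1, and 1.77% and 7.53% in H9. In HSF1 cells LAMA5 (0.62), AGRN (0.36), LAMB2 (0.33) and HSPG2 (0.33) were higher in conditioned medium and SPARC (-0.44), a collagen-binding matrix protein, lower. In H9 cells none of the 12 was higher, and NID2 (-0.64), LAMA1 (-0.44) and SPARC (-0.35) were lower. The interaction was called for 5 of the 12, all higher in HSF1, among them HSPG2 (0.63) and LAMA5 (0.56). P4HA2, a prolyl 4-hydroxylase that stabilises the collagen helix, was at 8.12, 8.11 and 7.90 in HSF1 cells in conditioned medium, against 7.24, 7.25 and 7.31 (0.78, SE 0.10), and its interaction was 0.80. Of the 18 fibroblast markers, none was higher and 2 were lower with conditioned medium in HSF1, and 2 were higher, IGFBP7 and CDH11, and 1 lower in H9. Their mean log2 level stayed between 6.55 and 6.87 on all 12 arrays.

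Between the lines themselves, in unconditioned medium, 12 collagen genes differed, 3 higher and 9 lower in HSF1 than in H9, where 16.0% of all genes were called, 6.87% higher and 9.14% lower. The groups did not overlap for 18 of the 43 genes and for 32.9% of all genes, and none of the 12 differences reached 2-fold. The FACIT COL12A1 was at 5.57, 5.67 and 5.74 in HSF1 cells, against 6.43, 6.33 and 6.63 in H9 cells (-0.81, SE 0.10, adjusted p 6.61e-05). COL11A1 was at 7.57, 7.67 and 7.64 against 8.26, 8.58 and 8.33 (-0.76, SE 0.09, adjusted p 3.85e-05). COL5A1 (-0.70), COL2A1 (-0.74), COL5A2 (-0.59), COL4A1 (-0.38), COL6A1 (-0.27), COL9A3 (-0.27) and COL6A3 (-0.40) were lower as well. COL1A1 (0.39), COL21A1 (0.33) and COL15A1 (0.40) were higher in HSF1, the last at 3.45, 3.61 and 3.46 against 3.04, 3.16 and 3.12, a signal below 5. The calls of COL11A1, COL12A1, COL2A1 and COL5A1 held under all 13 settings. With replicate 1, 2 or 3 left out, 10, 4 and 5 collagen genes were called, in smaller fits for which the share of all genes is not given. The HSF1 and H9 groups in unconditioned medium also enter the medium contrasts above, so those values are set side by side and not compared.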

How the data were processed

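The 24 arrays came as a single deposited table, in which the authors give log2 values of 54675 probe sets. Per the submitters' processing notes the values came from RMA, which corrects background, brings arrays to one distribution and summarises probes. The deposited values of the 24 arrays did not share one distribution, however. Their medians ran from 6.09 to 6.35 and their interquartile ranges from 2.45 to 3.30, and the main fit used them as deposited. Neither the software version nor the set of arrays normalised jointly is given in the sources used. Per the labels' protocols total RNA was column-purified and biotin-labelled. The lowest value was 2.05 and the highest 14.9. Precision is limited by the number of arrays, which have no depth. Genes were named from the platform annotation (41097 probe sets with 1 symbol, 1801 with several, 11777 with none).

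The collagen genes and all gene lists were chosen with earlier results of these data known. After 62 control probe sets were left out, limma 3.58.1 in R 4.3.3 (lmFit, eBayes with trend) was fitted to all 54613 probe sets with no filter on level, with Benjamini-Hochberg adjustment over all of them. The first experiment was fitted with line as a block, since its replicate numbers are the lines H1, H9 and HSF1. Deviations of arrays of one line from their group means correlated at 0.63 to 0.88 within a culture system and at -0.05 to 0.46 between systems. The line block leaves out this closer pairing within a system. A block of line by culture system was fitted as an alternative for the inhibitor contrasts. The second was fitted without a block. A gene was called by its leading probe set at an adjusted p below 0.05, and shares of all genes are over the leading probe sets of 19775 genes. P-values measure the spread between lines in the first experiment and between biological replicates of one line in the second.

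Values on every array were given for up to 4 called genes in each direction per class and comparison and for COL1A1, COL1A2, COL3A1, COL4A1, COL4A2, COL5A1, COL5A2, COL6A1, COL6A2, COL6A3 and COL18A1. Of partner lists up to 3 members with the smallest p were named, and further ones after their values were seen. Alternatives changed the level filter, normalization, probe set summary, variance trend, array weights, an ACTB covariate, the block and the arrays used. The fit was tested on simulated data. Sequences and motif counts came from RefSeq tables of GRCh38.p14.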

Additional observations from a re-analysis of the deposited data

Results flagged for a closer look

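The medium and line interaction singled out 7 collagen genes, because the effect of conditioned medium in HSF1 and in H9 differed by a test of the difference itself. As HSF1 minus H9 on the log2 scale, the difference was 0.69 for COL9A3, 0.68 for COL5A1, 0.60 for COL2A1, 0.60 for COL12A1, 0.53 for COL9A1 and 0.42 for COL4A6, and it was -0.80 for COL5A2. Where replicates 2 and 3 of H9 in unconditioned medium, which had ACTB 3′ minus 5′ differences of 3.25 and 2.89, were left out, COL9A3 and COL5A2 were called. The part of RNA quality in the other 5 was not tested further. All groups hold 3 arrays, so no array was tested as an outlier within its group.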

How the results depend on the processing

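Among called and named collagen genes, 1923 of the values recomputed under an alternative kept their direction and side of the threshold, 236 lost the call, 58 gained one and 9 changed sign. Except for the ranges with 1 line or replicate number left out, counts of collagen genes are given here with the share of all genes called in the same fit. Array weights gave 21 (60.8%) between FS and FF cultures under DMSO, 29 (69.4%) under AZD3965, 6 (11.5%) for AZD3965 in FS, 3 (10.3%) in FF, 19 (29.5%) for the mean of both and 11 (17.9%) for conditioned medium in HSF1. The ACTB difference as a covariate gave 4 (1.56%) under DMSO, 4 (4.04%) under AZD3965, 11 (15.8%) for conditioned medium in HSF1 and 4 (2.04%) for the interaction of medium and line. Without the line as a block (no replicate block) the FS and FF contrasts gave 5 (9.38%) and 11 (17.6%). The replicate block of line by culture system gave 7 (10.8%) for AZD3965 in FF and 9 (12.1%) for the mean. Without the 2 feeder-supported HSF1 arrays AZD3965 gave 2 (6.64%) in FF and 2 (4.79%) for the mean. Quantile normalization gave 7 higher and 3 lower under DMSO, and 9 higher and 5 lower under AZD3965 (23.0% of all genes). Without replicates 2 and 3 of H9 in unconditioned medium there were 6 (2.04%) for conditioned medium in H9, 11 (17.1%) in HSF1 and 2 (1.49%) for the interaction. A replicate block by number within line gave 3 (1.47%) for the interaction and moved no other count by over 1.5 times. In the second experiment same-numbered arrays correlated at -0.25 to 0.098, in 0 of 6 pairs above 0.1, so numbers were not taken as pairs.

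With 1 line or replicate number left out, the counts ran from 4 to 14 (FS and FF under DMSO), 1 to 19 (under AZD3965), 0 to 0 (AZD3965 in FS), 0 to 1 (in FF), 0 to 1 (mean), 0 to 0 (interaction of culture system and inhibitor), 1 to 13 (conditioned medium in H9), 3 to 6 (in HSF1), 0 to 3 (interaction of medium and line) and 4 to 10 (HSF1 and H9 in unconditioned medium). The sign changed for COL6A1 (0.38 under DMSO with the mean of all probe sets), COL4A2 (0.55 under AZD3965 with array weights), COL3A1 (-1.10 for the mean inhibitor effect with array weights), COL4A2 (0.45 under DMSO and 0.58 under AZD3965, both without HSF1 and without its 2 feeder-supported arrays), COL5A1 (0.52 under AZD3965 without HSF1) and COL1A2 (0.25 between lines on its averaged probe sets). The cause was not tested. With 3 arrays per group, small differences can be missed, and levels below 5 lie near the bottom of the signal.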
